A study of Arabidopsis thaliana with 24 samples.

Results

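Jasmonate synthesis and response were followed through 10 genes of Arabidopsis thaliana, chosen by locus among the 33341 loci counted in the mRNA libraries: the lipoxygenases LOX2 (AT3G45140), LOX3 (AT1G17420) and LOX4 (AT1G72520), the allene oxide synthase AOS (AT5G42650), the allene oxide cyclases AOC1 (AT3G25760) and AOC2 (AT3G25770), the reductase OPR3 (AT2G06050), the vegetative storage proteins VSP1 (AT5G24780) and VSP2 (AT5G24770), and the repressor JAZ1 (AT1G19180). All 10 were present in the count files, and all 10 carry the same symbols in the RefSeq gene table of the TAIR10.1 assembly. The study compared rh27-2, a line with a mutant allele of the DEAD-box RNA helicase gene RH27, with the Col-0 wild type (WT). Seedlings grew for 5 days after germination on 1% sucrose plates in long days, and the groups, with 3 mRNA libraries each, were root tips of rh27-2, root tips of WT, shoot apices of rh27-2 and shoot apices of WT. The mutant is a single allele in every comparison. The labels give neither the molecular lesion of the allele nor the number of plants per library, and nothing says that replicates came from separate cultures, and the p-values below cover the variation among the libraries, which may be technical.

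Jasmonate is made from linolenic acid of plastid membranes. Lipoxygenases such as LOX2, LOX3 and LOX4 oxygenate the fatty acid in the plastid, AOS and the AOC enzymes turn the product into a cyclic precursor, and OPR3 reduces that precursor in the peroxisome before beta-oxidation shortens its side chain. JAR1 joins jasmonate to isoleucine, and the conjugate brings the receptor COI1 together with JAZ proteins, which are then degraded and release transcription factors such as MYC2. JAZ1 and several synthesis genes are themselves induced by jasmonate, and VSP1 and VSP2, which encode acid phosphatase-like storage proteins, are widely used readouts of the hormone in leaves and wounded tissue.

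The mRNA libraries held 15603992 to 20380109 counts on 21650 to 22788 detected loci. RH27 itself (AT5G65900) stood at 12.6, 14.9 and 13.8 CPM in rh27-2 root tips, against 25.6, 24.5 and 21.8 CPM in WT root tips, and at 25.7, 26.7 and 23.9 CPM in rh27-2 shoot apices, against 34.5, 26.8 and 30.7 CPM in WT shoot apices. The fall was called in root tips (log2 fold change -0.80, SE 0.09; adjusted p = 8.47e-06, from the quasi-likelihood F test of edgeR, Benjamini-Hochberg adjusted) and not in shoot apices (-0.33, SE 0.12; adjusted p = 0.0712). RH27 overlaps AT5G65910, whose reads cannot be told apart where the strand of counting is not given. CPM is the read count scaled to a fixed library size, with TMM factors over the 12 mRNA libraries, errors of means are SDs of 3 libraries, log2 fold changes are rh27-2 over WT unless an organ contrast is named, and a gene was called at an adjusted p below 0.05 over all tested genes. Root cap markers summed to 43.2 to 48.9 CPM in rh27-2 and 43.7 to 50.9 CPM in WT root tips, and to at most 0.486 CPM in any shoot library, so the organ labels and this list ran together.

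In shoot apices of rh27-2 the lipoxygenase LOX2 was nearly lost, while LOX3, LOX4, OPR3 and JAZ1 rose. LOX2 fell by 7.54 on the log2 scale, and the 4 genes that rose did so by 0.76 to 1.3. AOS, AOC1, AOC2, VSP1 and VSP2 did not pass the test. All 10 genes passed the filter on low counts, 4 were called higher and 1 lower, where 21.1% of the 18972 tested genes were called higher and 19.8% lower. The median log2 fold change was 0.58 over the 10 genes and -0.02 over all tested genes. Since these are bulk samples, fewer cells that make a transcript and less transcript per cell cannot be told apart.

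LOX2, the lipoxygenase that supplies much of the jasmonate precursor in leaves, had 0.748, 0.593 and 0.490 CPM in rh27-2 shoot apices, against 125, 170 and 37.3 CPM in WT shoot apices. These values rest on 11, 11 and 7 counts in rh27-2 and 2059, 3340 and 686 counts in WT. The groups did not overlap, and WT replicate 3 lay well below the other WT libraries. The fold change of -7.54 (SE 0.69; adjusted p = 7.52e-04, edgeR) stayed between -7.97 and -7.10 over 12 alternatives, each of which kept the call.

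LOX3 had 1239.5, 1440.2 and 1467 CPM in rh27-2 shoot apices and 603, 989 and 764 CPM in WT shoot apices. Every rh27-2 library was above every WT library, with WT replicate 2 the closest (log2 fold change 0.76, SE 0.21; adjusted p = 0.0269, edgeR). The call was lost without WT replicate 1 (adjusted p = 0.0615), WT replicate 3 (0.0661), rh27-2 replicate 2 (0.0900) or rh27-2 replicate 3 (0.0823), and in the edgeR fit over 12 libraries (0.0564). Over 12 alternatives its adjusted p ran from 0.00154 to 0.0900 and its log2 fold change from 0.57 to 0.94.

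LOX4, the closest relative of LOX3 in sequence, had 1287, 1149.5 and 1192 CPM in rh27-2 shoot apices, against 444, 523 and 449.9 CPM in WT shoot apices. The 3 libraries of each group lay close together and the groups were far apart (log2 fold change 1.3, SE 0.14; adjusted p = 0.00118, edgeR). All 12 alternatives kept this call. The 3 lipoxygenases thus split, with LOX2 lower and LOX3 and LOX4 higher in the same mutant libraries.

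AOS, which commits the oxygenated fatty acid to jasmonate, had 882, 1304.5 and 1261 CPM in rh27-2 shoot apices and 441, 904 and 481 CPM in WT shoot apices. The groups overlapped, because WT replicate 2 was above rh27-2 replicate 1, and the fold change of 0.86 (SE 0.31) was not called (adjusted p = 0.0621, edgeR). With the replicate number as a block, used because same-numbered shoot libraries deviated together, AOS was called higher (0.92, SE 0.20; adjusted p = 0.0109). It was also called without WT replicate 2 (1.24; 0.0113), without rh27-2 replicate 1 (1.01; 0.0481), with DESeq2 (0.0148) and in the fit over 12 libraries (0.0140), and its adjusted p over 12 alternatives ran from 0.0109 to 0.171.

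The cyclases AOC1 and AOC2 form the ring of the precursor. AOC1 had 182, 344 and 313 CPM in rh27-2 shoot apices and 215.5, 425 and 206 CPM in WT shoot apices, a difference of -0.07 (SE 0.35; adjusted p = 0.887, edgeR). AOC2 had 285, 615 and 511 CPM in rh27-2 and 276, 596 and 232 CPM in WT, a difference of 0.30 (SE 0.42; adjusted p = 0.592). Both groups of both genes overlapped widely, with the highest library of each group at well above its lowest. Normal 95% intervals, -0.75 to 0.61 for AOC1 and -0.52 to 1.11 for AOC2, leave room for changes in either direction. They make no allowance for the small number of libraries and so are too narrow. AOC1, AOC2 and AOC3 lie next to each other in the genome and are close paralogues, so reads may be split among them, and their summed counts gave 0.67 (SE 0.34; adjusted p = 0.148). AOC3 was the largest part of that sum, at 1327 ± 242 CPM in rh27-2 and 603 ± 240 CPM in WT shoot apices.

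OPR3, the peroxisomal reductase, had 755, 890.2 and 879 CPM in rh27-2 shoot apices, against 331, 540.5 and 338 CPM in WT shoot apices. All rh27-2 libraries exceeded all WT libraries (log2 fold change 1.00, SE 0.22; adjusted p = 0.0120, edgeR), and 12 of 12 alternatives kept the call. JAZ1, the repressor that jasmonate both destroys as a protein and induces as a transcript, had 1368, 1441 and 1418 CPM in rh27-2, against 490.4, 737 and 489 CPM in WT. Its rh27-2 libraries were nearly level and all above WT (log2 fold change 1.24, SE 0.20; adjusted p = 0.00380), and the rise held under all 12 alternatives with log2 fold changes between 1.12 and 1.45.

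The storage protein genes were not called in shoot apices. VSP1 had 12.6, 17.1 and 10.2 CPM in rh27-2 and 20.8, 26.2 and 6.10 CPM in WT (log2 fold change -0.46, SE 0.48; adjusted p = 0.468, edgeR). VSP2 had 63.7, 58.8 and 31.7 CPM in rh27-2 and 43.4, 56.8 and 11.9 CPM in WT (0.41, SE 0.52; adjusted p = 0.551). Between same-numbered libraries, a pairing the labels do not state, VSP2 was higher in rh27-2 in 3 of 3 pairs. The replicate block gave 0.59 for VSP2 (SE 0.24; adjusted p = 0.0865). VSP1 was higher in rh27-2 in 1 of 3 pairs, and the block gave -0.30 (SE 0.28; adjusted p = 0.405). Over all expressed genes rh27-2 replicate 3 went better with WT replicate 2 (r = 0.260) than with WT replicate 3 (0.146). WT replicate 2 was above rh27-2 replicate 3 for both VSP1 and VSP2. WT replicate 3 was the lowest of the 6 libraries for both genes, and rh27-2 replicate 3 was the lowest of its group. Without WT replicate 3, VSP1 was called lower in rh27-2 (-0.88; adjusted p = 0.0333), whereas its adjusted p over 13 alternatives ran from 0.0333 to 0.920.

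**Figure D1:**
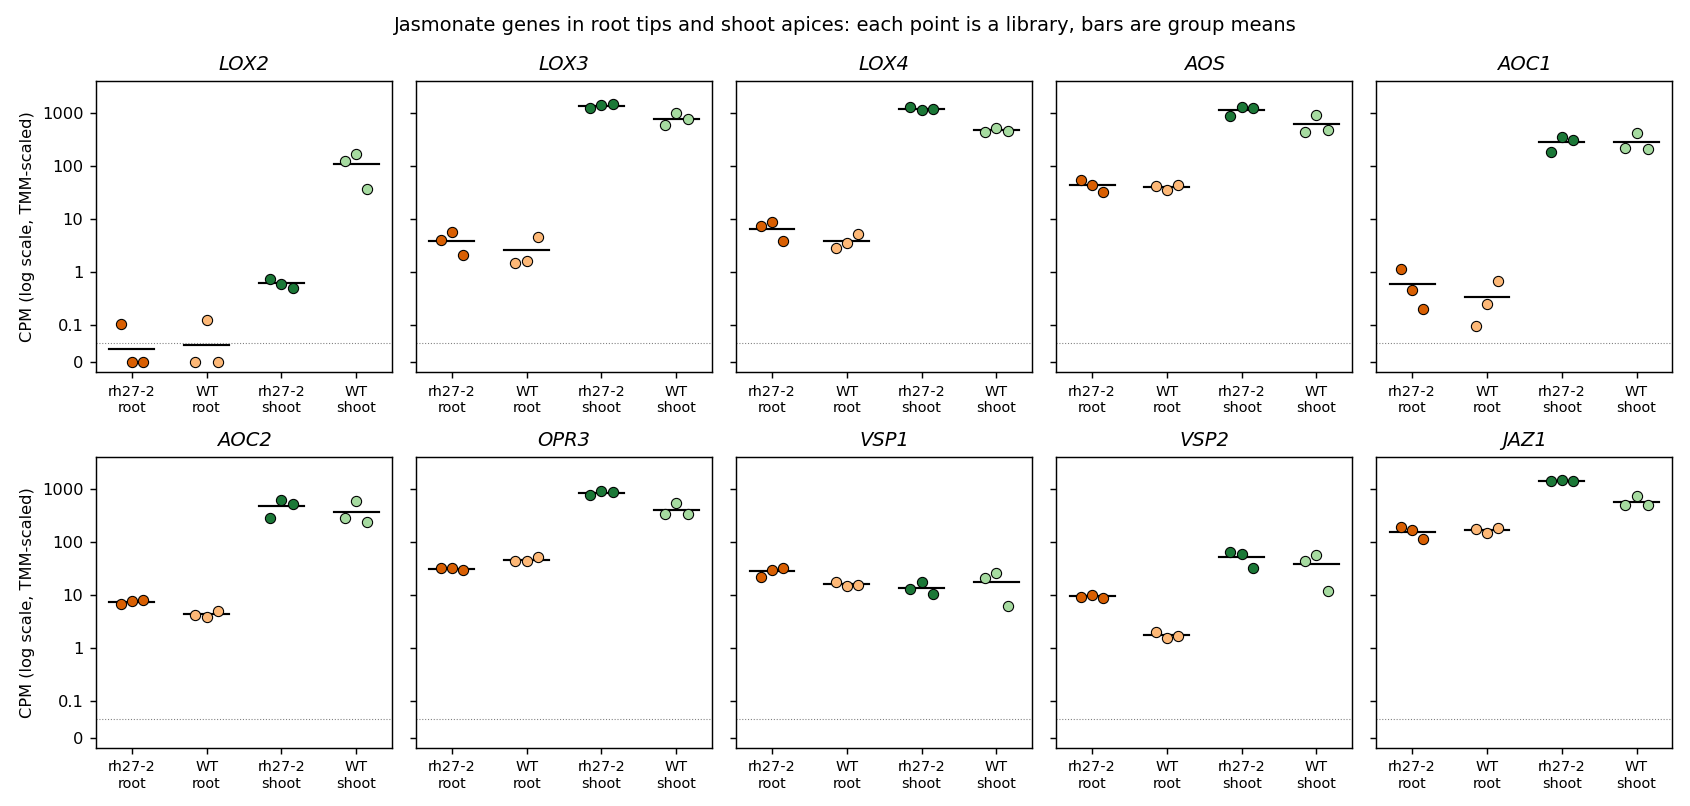
CPM of each of the 10 genes in the 12 mRNA libraries (log axis), with a point for each library and a bar for the mean of 3. Libraries without counts are drawn at the tick labelled 0, below the dotted line. LOX2 in rh27-2 shoot apices lies below 1 CPM while WT shoot apices lie between 37.3 and 170 CPM, and root tips lie below shoot apices for all genes except VSP1.

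Replicates of a group differed in ways that tied some of the 10 genes together. Deviations of log2 CPM from the group mean were compared over the 6 shoot libraries, which share depth and dissection with every gene in them, so these coefficients are descriptions. LOX2, VSP1 and VSP2 deviated together (r = 0.948 for LOX2 with VSP1, 0.967 for LOX2 with VSP2 and 0.959 for VSP1 with VSP2), and WT replicate 3 was low for all 3. AOS, AOC1, AOC2, OPR3, LOX3 and JAZ1 formed another set, with r from 0.778 for LOX3 with AOC2 to 0.994 for AOC1 with AOC2. For each gene of this set rh27-2 replicate 1 was the lowest rh27-2 library. WT replicate 2 was the highest WT library for all 10 genes, so it does not mark the set. WT replicate 3 was also the lowest WT library for AOC1, AOC2 and JAZ1. Between the sets r ran from 0.0605 for LOX3 with VSP2 to 0.622 for LOX2 with JAZ1. LOX4 fell in neither set, with r from 0.299 with AOC1 to 0.777 with JAZ1. The sets were drawn from these values.

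**Figure D2:**
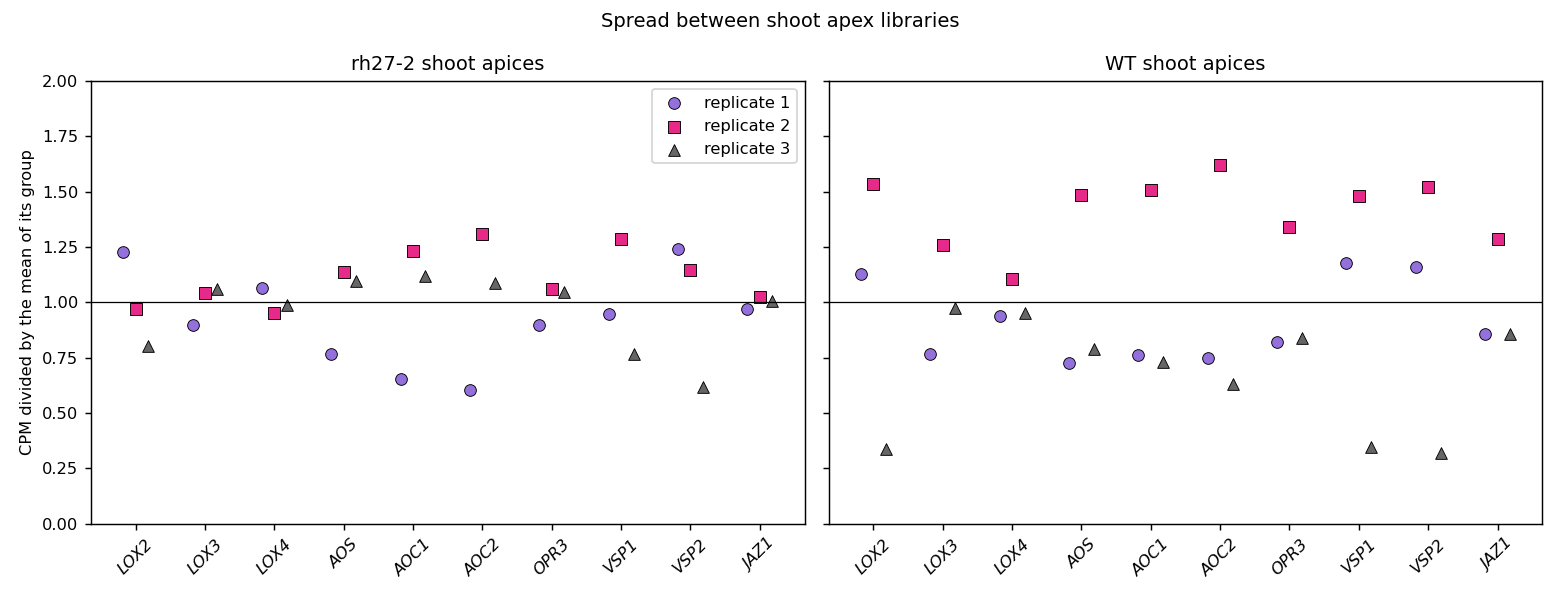
CPM of each gene in each shoot apex library divided by the mean of its group (linear axis, left rh27-2, right WT; marks stand for replicates 1, 2 and 3). WT replicate 3 is far below the group mean for LOX2, VSP1 and VSP2 and near or moderately below it for the other genes.

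In root tips the same genes gave another picture: VSP2, VSP1 and AOC2 rose in rh27-2, OPR3 fell, and LOX3, LOX4, AOS and JAZ1 did not pass the test. LOX2 and AOC1 did not pass the filter on low counts. Of the 8 genes tested, 3 were called higher and 1 lower, where 31.3% of the 19443 tested genes were called higher and 30.9% lower. The median log2 fold change of the 8 was 0.69, against 0.01 over all tested genes.

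VSP2 had 9.16, 9.99 and 8.63 CPM in rh27-2 root tips, against 2.01, 1.5 and 1.70 CPM in WT root tips. The groups lay far apart with little spread in either (log2 fold change 2.39, SE 0.16; adjusted p = 6.77e-08, edgeR), and 12 of 12 alternatives kept the call. VSP1 had 21.2, 29.9 and 31.4 CPM in rh27-2, against 17.7, 14.9 and 15.6 CPM in WT. These groups did not overlap either, though rh27-2 replicate 1 was close to WT replicate 1 (0.77, SE 0.14; adjusted p = 0.00114). VSP1 and VSP2 are close paralogues with 1 locus between them, and their summed counts rose as well (1.04, SE 0.11; adjusted p = 1.24e-05).

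AOC2 had 6.54, 7.56 and 7.94 CPM in rh27-2 root tips, against 4.06, 3.88 and 5.03 CPM in WT root tips. It was higher in every rh27-2 library (log2 fold change 0.76, SE 0.15; adjusted p = 7.05e-04, edgeR). AOC1 was close to the detection limit, with 22, 9 and 4 counts in rh27-2 and 2, 4 and 11 counts in WT. With the counts of AOC1, AOC2 and AOC3 summed, the difference was 0.01 (SE 0.17; adjusted p = 0.958). AOC3 made up most of that sum, at 102 ± 23.9 CPM in rh27-2 and 105 ± 6.96 CPM in WT (-0.03; adjusted p = 0.894). The sum could therefore hardly show a change of AOC2. In the fit over 12 libraries, which takes 1 spread for both organs, AOC2 (adjusted p = 0.145) and VSP1 (0.130) were not called. Their adjusted p over the alternatives ran from 2.41e-04 to 0.145 for AOC2 and from 4.02e-07 to 0.130 for VSP1.

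OPR3 went the other way from its shoot response. It had 32.3, 31.5 and 29.6 CPM in rh27-2 root tips, against 42.4, 42.3 and 51.6 CPM in WT root tips. All rh27-2 libraries were below all WT libraries (log2 fold change -0.55, SE 0.08; adjusted p = 9.05e-05, edgeR), and 12 of 12 alternatives kept the call.

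JAZ1 had 186, 165 and 112 CPM in rh27-2 root tips and 173, 146 and 178 CPM in WT root tips (log2 fold change -0.11, SE 0.22; adjusted p = 0.709, edgeR). AOS had 54.2, 44.0 and 32.4 CPM in rh27-2 and 41.8, 35.7 and 43.5 CPM in WT (0.10, SE 0.20; adjusted p = 0.687). LOX3 had 3.98, 5.64 and 2.07 CPM in rh27-2 and 1.47, 1.63 and 4.54 CPM in WT (0.63, SE 0.58; adjusted p = 0.388). In all 3 genes rh27-2 replicate 3 was the lowest of its group and the groups overlapped. LOX4 had 7.22, 8.64 and 3.80 CPM in rh27-2 and 2.84, 3.57 and 5.27 CPM in WT (0.76, SE 0.36; adjusted p = 0.104). Without rh27-2 replicate 3, LOX4 (1.04; adjusted p = 0.00227) and AOS (0.28; 0.0474) were called higher, and without WT replicate 3 LOX3 was called higher (1.33; 0.0337). LOX4 was called higher with DESeq2 (0.0171) and in the fit over 12 libraries (0.0455) too. The adjusted p over 12 alternatives ran from 0.00227 to 0.264 for LOX4, from 0.0474 to 0.943 for AOS and from 0.0337 to 0.736 for LOX3.

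LOX2 had 2, 0 and 0 counts in rh27-2 root tips and 0, 2 and 0 counts in WT root tips. Both groups were under the floor of 3 counts over the group, which stands for 0.0511 CPM in rh27-2 and 0.0567 CPM in WT, so no fold change is given for root tips.

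**Figure D3:**
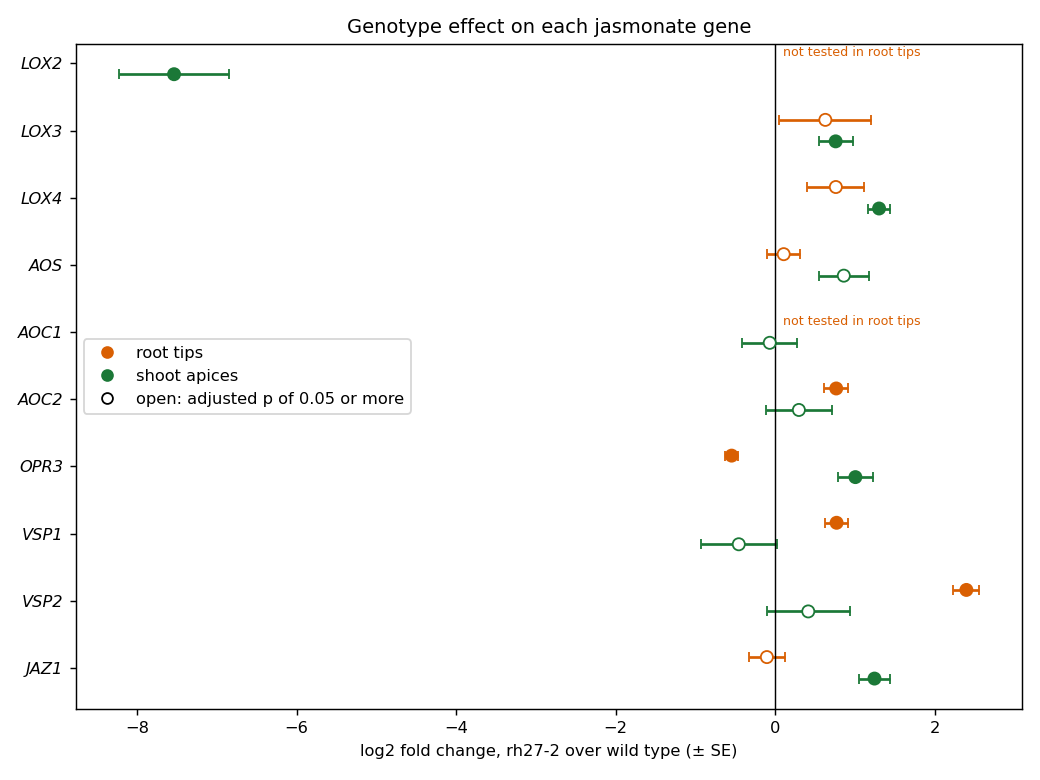
Log2 fold change of rh27-2 over WT with its SE for each gene in root tips (upper mark of each pair) and shoot apices (lower mark), filled where the adjusted p was below 0.05. OPR3 lies at -0.55 in root tips and 1.00 in shoot apices, and VSP2 at 2.39 in root tips and 0.41 in shoot apices.

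The difference between the genotype effects, root tips minus shoot apices, was tested in a fit over all 12 mRNA libraries. VSP2 was called higher, and OPR3 and JAZ1 were called lower, 3 of 10 genes, where 21.4% of the 20798 tested genes were called higher and 22.6% lower. OPR3 differed by -1.61 (SE 0.24; adjusted p = 3.84e-04, edgeR) and JAZ1 by -1.40 (SE 0.28; adjusted p = 0.00197), and both kept the call under 17 of 17 alternatives. VSP2 differed by 1.94 (SE 0.69; adjusted p = 0.0407). Its call was lost with no filter (0.0605) and in 10 of the 12 fits that left out a library: all 6 root tip libraries, WT shoot replicates 1 and 2, and rh27-2 shoot replicates 2 and 3. These 10 fits gave adjusted p values from 0.0535 to 0.0884, and all 17 alternatives from 9.27e-04 to 0.0884. With the replicate block, AOS (-0.89; adjusted p = 0.0254) and VSP1 (1.03; 0.0497) were called as well, 5 genes in all, against adjusted p values of 0.109 and 0.106 without it. That block also paired root tip libraries by number, although their deviations did not go together by number (r = 0.0317, -0.0030 and -0.0421). LOX2 was not called (adjusted p = 0.207), and with 2 counts in each root group its fitted size depends on the prior count and is not given. It was called with DESeq2 (1.87e-04) and without WT shoot replicate 3 (0.0191), within a range up to 0.989.

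Between organs the 10 genes were mostly far lower in root tips. In rh27-2, 9 of 10 genes were called lower in root tips than in shoot apices and 1 higher, where 34.1% of the tested genes were called lower and 38.5% higher. LOX2, the weakest of the 9, rests on 2 root counts (adjusted p = 0.0493, edgeR), and its call was kept under 5 of 17 alternatives (adjusted p from 0.00123 to 0.120). In WT, 9 were called lower and none higher, by unadjusted as by adjusted p of edgeR, where 39.2% were called lower and 37.1% higher. Both contrasts and the difference between genotype effects use the same libraries. For these contrasts the log2 fold changes are root tips over shoot apices.

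LOX3 and LOX4 had the widest organ gaps among genes with more than a few counts in each library of both organs. LOX3 averaged 3.90 ± 1.79 CPM in rh27-2 root tips, against 1382 ± 124 CPM in rh27-2 shoot apices, and 2.55 ± 1.73 CPM in WT root tips, against 785 ± 194 CPM in WT shoot apices (log2 fold changes -8.48 and -8.29, SE 0.47 in each genotype). LOX4 averaged 6.55 ± 2.49 CPM in rh27-2 root tips, against 1209.5 ± 70.3 CPM in rh27-2 shoot apices, and 3.89 ± 1.25 CPM in WT root tips, against 472 ± 44.0 CPM in WT shoot apices (-7.54 and -6.94). The organ groups of both genes lay orders of magnitude apart in each genotype.

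The organ differences in rh27-2 and then WT were -4.73 and -3.92 for AOS, -8.86 and -9.75 for AOC1, -6.01 and -6.42 for AOC2, -4.76 and -3.16 for OPR3, and -3.20 and -1.79 for JAZ1. VSP2 averaged 9.26 ± 0.687 CPM in rh27-2 root tips, against 51.4 ± 17.3 CPM in rh27-2 shoot apices, and 1.74 ± 0.255 CPM in WT root tips, against 37.4 ± 23.0 CPM in WT shoot apices (-2.48 and -4.42). LOX2 counts were so few in root tips that its organ difference is given as the ratio of summed counts. Root tips stood at 5.59% of shoot apices in rh27-2, from 2 and 29 counts (95% exact interval 0.646% to 22.1%, counting error only), and at 0.0338% in WT, from 2 and 6085 counts (0.00410% to 0.122%).

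VSP1 was the exception. It averaged 27.5 ± 5.50 CPM in rh27-2 root tips, against 13.3 ± 3.52 CPM in rh27-2 shoot apices, and 16.1 ± 1.48 CPM in WT root tips, against 17.7 ± 10.4 CPM in WT shoot apices. In rh27-2 every root library was above every shoot library (1.03, SE 0.39; adjusted p = 0.0334, edgeR), and in WT the organs overlapped (-0.15, SE 0.39; adjusted p = 0.747). The rh27-2 call was lost without rh27-2 shoot replicate 1 (0.0754) or 3 (0.105) and without rh27-2 root replicate 2 (0.0740) or 3 (0.0749). With the counts of VSP1 and VSP2 summed, the rh27-2 difference turned to -0.83 (adjusted p = 0.0930). VSP2 made up most of that sum in rh27-2 shoot apices, at 51.4 ± 17.3 CPM, so the sum is not a value of VSP1 alone. Over 18 alternatives, the sum included, the adjusted p of the rh27-2 difference ran from 6.75e-04 to 0.105. In WT, VSP1 was called lower in root tips without WT shoot replicate 3 (-0.53; adjusted p = 0.0463). The summed counts of VSP1 and VSP2 were lower there too (-1.63; adjusted p = 0.00435). Over 18 alternatives, that sum included, the adjusted p ran up to 0.989. VSP2 was thus called lower in root tips in both genotypes, and VSP1 in neither.

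The other genes of the pathway were taken from 4 lists with 71 genes, of which 59 were tested in shoot apices and 48 in root tips. In shoot apices 17 were called higher and 4 lower in rh27-2, with a median log2 fold change of 0.54. In root tips 10 were called higher and 14 lower, with a median of -0.03. These counts stand beside the shares of all tested genes given above for each organ, and 15 of the 71 genes overlap another locus, whose reads cannot be told apart where the strand of counting is not given.

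Among 17 other synthesis genes, 16 were tested in shoot apices, and 5 rose and none fell (edgeR; 6 higher and 1 lower at an unadjusted p below 0.05, and 6 higher with DESeq2). AOC3, the third cyclase gene of the AOC1 and AOC2 cluster, had 1047, 1462 and 1471 CPM in rh27-2 shoot apices, against 469, 880.4 and 461 CPM in WT shoot apices. All its rh27-2 libraries were above all its WT libraries (log2 fold change 1.08, SE 0.29; adjusted p = 0.0249, edgeR), whereas AOC1 and AOC2 beside it were not called. LOX6, another plastid lipoxygenase, rose by 0.87, the desaturase FAD7, which makes linolenic acid in plastids, by 0.81, and the cyclase AOC4 by 0.58. The ligase OPCL1, which activates the OPR3 product for beta-oxidation, gave 0.36 (adjusted p = 0.0752), and JAR1 gave 0.90 (SE 0.42; adjusted p = 0.125). With the replicate block 7 of the 16 rose and 2 fell. Only 1 gene was called without WT replicate 1, rh27-2 replicate 2 or rh27-2 replicate 3.

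In root tips 15 of the other synthesis genes were tested, and 3 rose and 3 fell. AOC4 (log2 fold change -0.77; adjusted p = 6.07e-07, edgeR), the endoplasmic reticulum desaturase FAD3 (-0.48; 3.18e-06) and JAR1 (-0.42; 3.26e-05) fell, and the beta-oxidation enzyme MFP2 rose (0.39; 1.23e-05). AOC4 thus fell in root tips and rose in shoot apices, as OPR3 did. ACX1, the acyl-CoA oxidase of jasmonate beta-oxidation, gave 0.02 (adjusted p = 0.835).

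Genes that inactivate jasmonate were listed separately, and 9 of 10 were tested in each organ. In shoot apices 3 rose and none fell (edgeR; 4 higher both at an unadjusted p below 0.05 and with DESeq2). All 3 were cytochrome P450 enzymes that oxidise the isoleucine conjugate. CYP94B3 had 412, 505 and 438 CPM in rh27-2 shoot apices, against 103, 228 and 133 CPM in WT shoot apices (log2 fold change 1.49, SE 0.29; adjusted p = 0.00833, edgeR). CYP94C1 had 424, 490.4 and 371 CPM in rh27-2, against 136, 266 and 97.9 CPM in WT (1.31, SE 0.35; adjusted p = 0.0240). Neither gene's groups overlapped. CYP94B1 averaged 394 ± 142 CPM in rh27-2 and 98.3 ± 86.3 CPM in WT (1.94, SE 0.61; adjusted p = 0.0391). The listed locus AT5G05600, which has no symbol in the RefSeq table, gave 1.02 (adjusted p = 0.164). With the replicate block 7 rose and none fell. The count was 8 without WT replicate 2, 5 without rh27-2 replicate 1, 2 without WT replicate 3 or rh27-2 replicate 3, and 1 without WT replicate 1 or rh27-2 replicate 2.

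In root tips 3 turnover genes rose and 4 fell. Of the P450 genes named for shoot apices, CYP94B3 (0.92; adjusted p = 0.0174, edgeR) and CYP94C1 (0.91; 0.00108) rose here too. CYP94B1 fell (-1.03; 9.54e-04). The sulfotransferase ST2A, which acts on hydroxylated jasmonate, had 86.4, 85.6 and 88.1 CPM in rh27-2 root tips, against 25.3, 23.6 and 30.8 CPM in WT root tips (log2 fold change 1.70, SE 0.08; adjusted p = 8.02e-09, edgeR). Its rh27-2 libraries were almost equal and far above WT. The amidohydrolase ILL6 (-0.84; adjusted p = 1.29e-04) and AT5G05600 (-1.93; 3.53e-04) fell. JRG21 (AT3G55970) had 1 count over the 3 rh27-2 root libraries and 84 over the WT ones, a ratio of 1.07% (95% exact interval 0.0269% to 6.14%, counting error only). IAR3, another amidohydrolase, gave -0.15 (adjusted p = 0.0547).

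Of 23 genes of perception and signalling, 21 were tested in each organ. In shoot apices 7 rose and 1 fell. JAZ7 had 262, 207 and 157 CPM in rh27-2 shoot apices, against 54.5, 92.2 and 50.6 CPM in WT shoot apices (log2 fold change 1.61, SE 0.28; adjusted p = 0.00565, edgeR). JAZ8 had 211, 204 and 168 CPM in rh27-2, against 65.1, 105 and 61.5 CPM in WT (1.27, SE 0.23; adjusted p = 0.00570). These repressors of the JAZ family rose with JAZ1 and did not overlap between genotypes. AT3G22275 (1.79; adjusted p = 0.00307) and the transcriptional repressor JAM1 (0.54; 0.0137) also rose, and the Mediator subunit MED25 was the gene that fell (-0.40; 0.0445). JAZ6 gave 0.56 (adjusted p = 0.108). The receptor gene COI1 stood at 26.3 ± 2.18 CPM in rh27-2 and 26.1 ± 0.642 CPM in WT (-0.05; adjusted p = 0.744). Without rh27-2 replicate 2 or 3 the count was 4, and without WT replicate 3 it was 5, all higher. With the replicate block 10 rose and none fell.

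In root tips 3 perception and signalling genes rose and 5 fell. JAZ4 (log2 fold change 1.77; adjusted p = 2.09e-05, edgeR), JAZ6 (1.19; 4.85e-04) and the repressor JAM2 (0.38; 2.41e-04) rose, and AT3G22275 fell (-3.01; 3.65e-04), in the direction opposite to its shoot value. That fall rests on 9, 1 and 5 counts in rh27-2 root tips and 50, 18 and 44 counts in WT root tips. The locus overlaps AT3G22270. The corepressor adaptor NINJA gave -0.02 (adjusted p = 0.759) and COI1 gave -0.08 (0.255), at 51.2 ± 0.733 CPM in rh27-2 and 54.0 ± 2.22 CPM in WT. MYC2 (AT1G32640), the best known transcription factor of the pathway, had 0 counts in all 12 libraries. The RefSeq table places it over AT1G32630, which had 17 to 49 counts per library, so its level was not measurable here.

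The list of 21 other response genes was thinly detected, with 13 tested in shoot apices and 3 in root tips. In shoot apices 2 rose and 3 fell. CORI3, a jasmonate- and coronatine-induced lyase gene, had 0.204, 1.13 and 0.490 CPM in rh27-2 shoot apices, against 12.3, 22.1 and 3.97 CPM in WT shoot apices (log2 fold change -4.37, SE 0.77; adjusted p = 0.00560, edgeR). CLH1, a chlorophyllase gene, had 21.6, 35.5 and 30.2 CPM in rh27-2, against 104, 127 and 51.4 CPM in WT (-1.75, SE 0.34; adjusted p = 0.00759). Both fell with LOX2, and in both WT replicate 3 was the lowest WT library, as it was for LOX2.

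TAT3, a tyrosine aminotransferase gene, had 41.6, 137 and 187 CPM in rh27-2 shoot apices, against 8.26, 23.4 and 8.06 CPM in WT shoot apices (log2 fold change 3.14, SE 0.65; adjusted p = 0.00987, edgeR). TPS04, a terpene synthase gene, rose by 2.38 (adjusted p = 0.00997), and the lectin gene JR1 gave 0.13 (0.685). In root tips TAT3 had 5.60, 2.85 and 2.02 CPM in rh27-2, against 42.2, 43.2 and 103 CPM in WT (-4.17, SE 0.64; adjusted p = 0.00431), so its organs gave opposite signs without overlap in either. ANAC055, a NAC factor downstream of MYC2, rose in root tips (1.01; adjusted p = 0.00341) and JR1 fell (-0.34; 2.87e-04). The defensin genes PDF1.2c and PDF1.3 and the factor MYB24 were at 0 in all 4 groups. The response list thus held genes that rose and genes that fell in each organ, and in shoot apices the replicate block gave 4 higher and 4 lower. Without WT shoot replicate 2, 5 were higher and 3 lower, and without WT root replicate 2 or 3, 3 were higher and 2 lower in root tips.

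**Figure D4:**
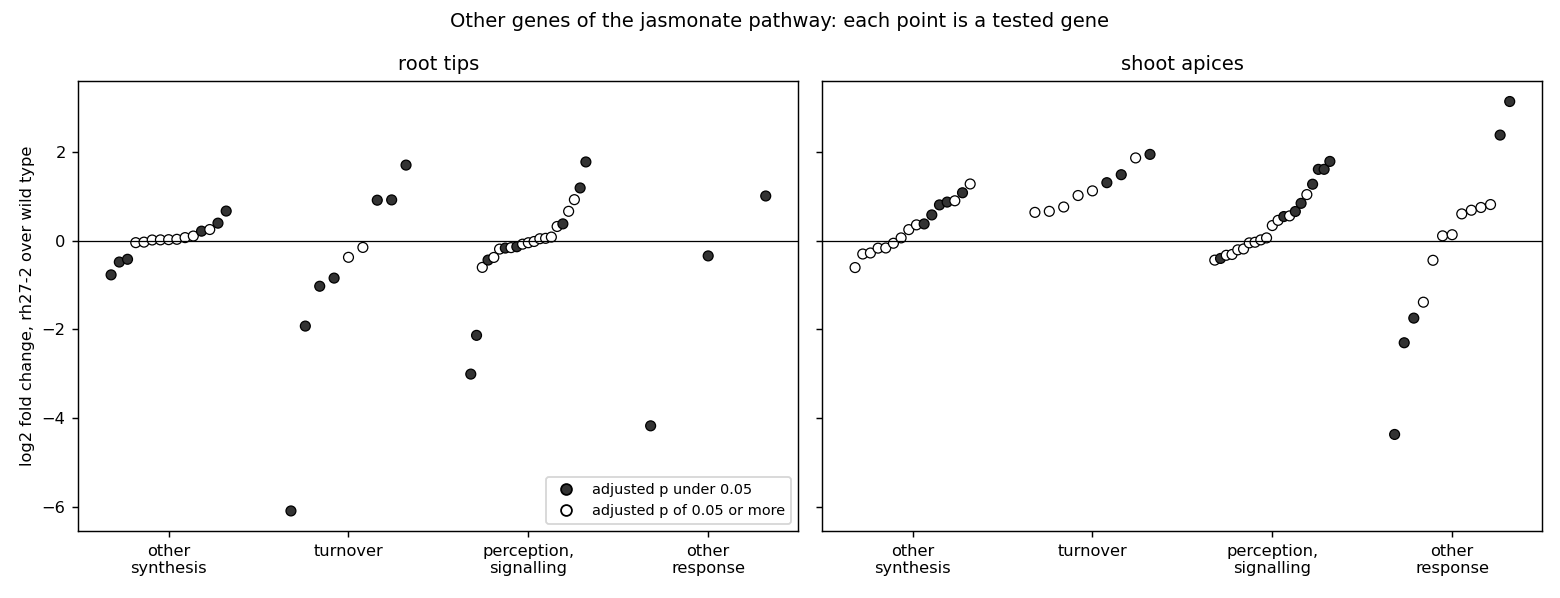
Log2 fold change of rh27-2 over WT of each tested gene in the 4 pathway lists, left in root tips and right in shoot apices, sorted within a list and filled where the adjusted p was below 0.05. In shoot apices the called genes of the synthesis and turnover lists all lie above 0, whereas in root tips called genes lie on both sides of 0 in all 4 lists.

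CIN-type TCP factors, which promote leaf maturation and are known to activate LOX2 directly, all fell in rh27-2 shoot apices, 5 of 5. TCP4 had 4.83, 2.75 and 4.76 CPM in rh27-2, against 63.9, 46.8 and 53.0 CPM in WT (log2 fold change -3.79, SE 0.24; adjusted p = 3.10e-04, edgeR), and TCP2 (-2.82), TCP10 (-2.27) and TCP24 (-1.41) fell with it. In root tips 2 of the 5 were tested. TCP4 gave 0.32 (adjusted p = 0.0999), and TCP10 fell (-0.61; 0.0237), a call that was lost without rh27-2 root replicate 3 or WT root replicate 3. Without rh27-2 root replicate 1, 1 of the factors was called higher and 1 lower. Their part in the LOX2 result was not tested.

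Genes of touch and early wounding, which respond to handling as jasmonate genes do, were also higher as a sum in rh27-2 shoot apices. Their list summed to 6057 to 7403 CPM in rh27-2 shoot apices and 4071 to 4869 CPM in WT shoot apices, and to 272 to 523 CPM in rh27-2 root tips and 278 to 332 CPM in WT root tips. In shoot apices 5 of 10 rose and none fell (7 higher both at an unadjusted p below 0.05 and with DESeq2), led by ZAT12 (log2 fold change 0.98; adjusted p = 0.00149, edgeR), TCH3 (0.64; 0.00643), ZAT10 (0.52; 0.0220) and WRKY40 (0.60; 0.0250), while TCH4 gave 0.59 (0.0617). The shoot count was 2 without WT replicate 1 or rh27-2 replicate 2, and 3 without rh27-2 replicate 3. In root tips TCH3 (1.14; adjusted p = 4.70e-04), TCH4 (2.07; 0.0114) and CML38 (1.3; 0.0116) rose, 3 of the 9 tested, WRKY33 gave 0.34 (0.0693), and 2 were called without WT root replicate 3. Among shoot libraries the sum of this list was highest in rh27-2 replicate 1 and WT replicate 3. The sum of the 10 jasmonate genes was highest in replicate 2 of both genotypes. Of the touch and wound genes named, TCH3, WRKY33 and WRKY40 overlap another locus, as do others of the list, so the limit given for the pathway lists holds here too. The part of the touch and wound genes in the jasmonate results was not tested.

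Markers of other tissues also differed between the shoot apices of the genotypes. The 8 genes of green leaf tissue summed to 5338 to 15603 CPM in rh27-2 and 14697 to 22019 CPM in WT, with 5 of 8 lower. The 3 genes of leaf hairs summed to 0.323 to 0.629 CPM in rh27-2 and 14.6 to 29.4 CPM in WT, with 3 of 3 lower, and none of these markers was at 0 in all libraries of a shoot group. The 5 vascular genes summed to 325 to 414 CPM in rh27-2 and 108 to 131 CPM in WT, with 4 of 5 higher, and the 5 shoot meristem genes to 214 to 266 CPM in rh27-2 and 93.1 to 141.5 CPM in WT, with 2 higher and 1 lower of 3 tested. The part of these lists in the shoot apex results was not tested.

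In root tips the vascular genes summed to 263 to 274 CPM in rh27-2 and 364 to 452 CPM in WT, with 4 of 5 lower, and the 5 root tip genes to 170 to 188 CPM in rh27-2 and 139 to 160.1 CPM in WT, with 3 higher. Green leaf genes summed to 57.3 to 141 CPM in rh27-2 root tips and 93.4 to 119 CPM in WT root tips, with 2 of the 7 tested higher and 1 lower. The leaf hair gene GL1 was at 0 in the root tips of both genotypes, and the meristem genes WUS and CLV3 were at 0 in WT root tips. The part of these lists in the root tip results was not tested.

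For LOX2, AOS, VSP2 and JAZ1, the 3 genes with the most similar log2 CPM over the 12 libraries were looked up among 7814 genes with a symbol and enough counts. These libraries fall into 4 groups and share organ and genotype, so the coefficients are descriptions and mostly rank group means. For LOX2 they were CFM2 (Pearson r = 0.988, Spearman rho = 0.898), RRA1 (0.987 and 0.944) and EMB2279 (0.984 and 0.954). RRA1 averaged 3.05 ± 0.206 CPM in rh27-2 shoot apices, against 51.7 ± 6.14 CPM in WT shoot apices, and stayed below 2 CPM in root tips. For AOS they were NSL1, UBQ11 and BPS2 (r = 0.996 each), and for JAZ1 PUB22 (r = 0.994), GRX480 (0.992) and PI4K GAMMA 4 (0.991).

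The genes nearest to VSP2 were FMO GS-OX1 (r = 0.989, rho = 0.916), RSR4 (0.975 and 0.937) and CRK18 (0.972 and 0.888). FMO GS-OX1 averaged 2.32 ± 0.377 CPM in rh27-2 root tips, against 0.172 ± 0.0221 CPM in WT root tips, and 14.9 ± 8.21 CPM in rh27-2 shoot apices, against 14.5 ± 10.2 CPM in WT shoot apices. Its lowest library in each shoot group was replicate 3, as for VSP2.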

How the data were processed

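mRNA was sequenced from root tips and shoot apices of rh27-2 and WT seedlings, with 3 libraries in each of 4 groups. The 12 small RNA libraries of the series were not used here. The authors deposited raw counts per locus; the submitters' processing notes name TopHat2, HTSeq, edgeR, Bowtie2 and the TAIR10 build without roles or versions. The strand of counting is not given in the sources used here. Of the 33341 loci, 33056 matched the RefSeq table of TAIR10.1, which was used for names and neighbours only.

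Genes were tested with edgeR 4.0.16 in R 4.3.3 (filterByExpr with a minimum count of 10, TMM, robust quasi-likelihood F tests, Benjamini-Hochberg adjustment over all tested genes at 0.05), with a fit for each organ and a fit over 12 libraries for organ contrasts and the difference of genotype effects. SEs were taken from the fold change and its F value, and the intervals of AOC1 and AOC2 from the SE and a normal quantile. The steps were also run on simulated counts in which few genes changed, unlike here, so that run does not test the scaling. Alternatives were DESeq2 1.42.0, its size factors, total count scaling, no filter, a replicate block, the 12-library fit, summed paralogues and leaving out each library. Organ contrasts with a block, and list counts under the alternatives, were added after seeing the data.

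The members and lists were chosen with earlier results of these data known. Named were all 10 members, RH27, JAR1, COI1, MYC2 and TCP4. From each other pathway or context list, per organ, the 4 called genes with the smallest adjusted p plus the most abundant uncalled one were named. MED25 was named to spell out a small count, after its value was seen. Root tip values of AOC3, CYP94B1, CYP94B3 and CYP94C1, and shoot counts of GL1 and MYB23, were likewise given after they were seen. The genes of similar pattern were the 3 with the highest Pearson r (prior count 2, mean log2 CPM of at least 1).

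Deviations from the group means correlated between same-numbered rh27-2 and WT shoot libraries (r = 0.391, 0.374 and 0.146 over 17193 genes), all above 0.1, so the numbers were taken to pair the shoot libraries, although the labels state no pairing and rh27-2 replicate 3 went better with WT replicate 2 (0.260). In root tips the values were 0.0317, -0.0030 and -0.0421, and the numbers were not taken as pairs. No pair of replicate libraries agreed within sampling noise (chi-square per degree of freedom 3.78 to 54.1). Exact intervals and floors of 3 counts cover counting error only.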

Additional observations from a re-analysis of the deposited data

Results flagged for a closer look

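For 3 of the 10 genes the effect of rh27-2 differed between the organs in a direct test (edgeR, difference of root tip and shoot apex effects, log2). OPR3 differed by -1.61, with the effect negative in root tips and positive in shoot apices, and no overlap of the genotypes in either organ. JAZ1 differed by -1.40, with overlapping genotypes in root tips and separate ones in shoot apices. VSP2 differed by 1.94 (adjusted p = 0.0407), with separate genotypes in root tips and overlapping ones in shoot apices, and its call was lost without the filter on low counts and in 10 of the 12 fits that left out a library (adjusted p up to 0.0884).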

How the results depend on the processing

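Of 735 member values under alternatives, 667 kept direction and side of the threshold, 34 lost the call and 19 gained it. The other 15 changed sign, 14 of them values not called in the first place, and none was called after the change. With paralogue counts summed these were VSP1 between organs in rh27-2 (-0.83), AOC1 (0.67) and VSP1 (0.19) in shoot apices, and AOC1 for the difference between organs (-0.71), and with total count scaling LOX3 for that difference (0.043). The summed values also hold the counts of VSP2, or of AOC2 and AOC3, so they are not values of VSP1 or AOC1 alone. Leaving out 1 library gave ranges across 0 of -0.26 to 0.34 for AOC1 and -0.029 to 0.83 for VSP2 in shoot apices, -0.089 to 0.28 for AOS and -0.27 to 0.083 for JAZ1 in root tips, -0.57 to 0.51 for LOX3 and -0.12 to 0.65 for AOC2 for the difference, and -0.53 to 0.26 for VSP1 between organs in WT. With the replicate block, members called numbered 6 in shoot apices and 4 in root tips. For the difference between organs, where root tip libraries were blocked by number too, they numbered 5. Between organs they numbered 10 in rh27-2 and 9 in WT (block shared by the organs). Apart from AOS and VSP1, the block changed no member's call; over all shoot genes it gave 8918 calls. In root tips, where the numbers do not pair libraries, it gave 6 calls in the touch list against 3. Leaving out a library gave 4 to 6 members called in shoot apices, 4 to 6 in root tips, 2 to 5 for the difference between organs (5 without WT shoot replicate 3), and 8 to 10 in rh27-2 and 9 to 10 in WT. Over all genes the ranges were 4491 to 7570 in shoot apices (4491 without rh27-2 replicate 2, 5162 without rh27-2 replicate 3), 11195 to 11799 in root tips, 7777 to 9747 for the difference, and between organs 14281 to 15780 in rh27-2 and 15103 to 16215 in WT. The cause was not tested. With total count scaling, higher and lower genes numbered 3506 and 4656 in shoot apices (with TMM, 4007 and 3762), 7291 and 4834 in root tips (6076 and 5999), 6883 and 3321 for the difference (4460 and 4699), and 10379 and 5796 between organs in rh27-2 (8012 and 7096). Medians of all genes moved to -0.11, 0.10, 0.29 and 0.35. Depth limits LOX2 and AOC1 in root tips. Over all genes, root tip libraries had a biological coefficient of variation of 0.0735 and shoot libraries one of 0.202.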
